A study of Mus musculus with 12 samples.

Results

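Sphingosine 1-phosphate (S1P) is a lipid that leads mature thymocytes out of the thymus, and 6 genes of its receptors and enzymes were followed through 4 stages of CD4 single positive (SP) thymocytes. The genes were picked by name and function, with earlier results of these data known. They are the receptors S1pr1 and S1pr4, the sphingosine kinases Sphk1 and Sphk2, the S1P lyase Sgpl1 and the S1P phosphatase Sgpp1. They are read by 11 probe sets, of 45037 in the deposited values, and are 6 of the 18193 genes that have a probe set of their own. By the RefSeq annotation on GRCm38.p6, S1pr1 lies at chr3:115710433-115715055, S1pr4 at chr10:81497745-81500137, Sphk1 at chr11:116530836-116536675, Sphk2 at chr7:45709463-45718002, Sgpl1 at chr10:61098642-61147684 and Sgpp1 at chr12:75714248-75735729.

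S1P is made from sphingosine by the sphingosine kinases, turned back into sphingosine by the phosphatases, and cut for good by the lyase. The lyase keeps S1P low inside tissues, while blood and lymph hold much more, and a T cell that carries the receptor S1P1 (encoded by S1pr1) moves up that gradient. The activation marker CD69 binds S1P1 and takes it from the cell surface, so protein on the surface and mRNA need not run together. S1P4 (S1pr4) is a second G protein-coupled receptor of the family, found mainly on blood and lymphoid cells.

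The 12 arrays came from untreated C57BL/6 mice at an age of 6 to 8 weeks, 3 arrays a subset, which the labels call biological replicates. Thymi of several mice were pooled for a sort. CD4+ cells without CD8, CD25 and NK1.1 were divided into 4 subsets in an order taken as increasing maturity. SP1, with the phenotype Qa-2-6C10+CD69+, came first. SP2 had lost the antigen 6C10 (Qa-2-6C10-CD69+), SP3 had lost CD69 as well (Qa-2-6C10-CD69-), and SP4 had gained Qa-2 (Qa-2+6C10-CD69-). CD44hi cells were not removed from the sorts for the arrays. The study states that its SP4 array data may thus be contaminated by a small share of mature T cells from the periphery. Each value is a linear probe set intensity that the authors had normalized between arrays, and array medians lay between 30.5 and 32.8. Fold changes are on the log2(intensity + 16) scale with their standard errors (SE), and a probe set was called at a limma adjusted p (Benjamini-Hochberg, over all 45037 probe sets) under 0.05. Each comparison was fitted without and with the replicate number as a block, since arrays of 1 number deviated together and replicate 3 stood apart from the others. In these bulk samples, fewer cells that carry a transcript and less of it per cell cannot be told apart.

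The 8 T cell identity genes measured (such as Cd3e and Cd4) all had means over 100 and their summed intensity lay between 15310 and 19254 over the 12 arrays. Markers of double positive thymocytes, the stage before the SP stage, did not track the subset order: their sum over 9 genes was lowest in SP2 (1288 to 2828), next in SP4 (1359 to 3716), wider in SP1 (1344 to 7877) and highest in SP3 (2533 to 13875), with overlap between all 4. Markers of activated or memory T cells (8 measured) summed to between 1378 and 2181 in SP1, SP2 and SP3 and to between 2807 and 3929 in SP4. In SP4 vs SP1, 2 of the 8 (Cxcr3 and Il18r1) were called higher without the block and 5 with it, with a median log2 fold change of 1.30. Over all probe sets 0.862% were called higher without the block and 3.39% with it, with a median of -0.0094. Fibroblast, epithelial and erythroid marker sums lay between 106 and 241 on every array.

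The start region of S1pr4 is shown because its gene rose from SP1 to SP4 and Klf2, whose protein family binds CACCC, was among the genes followed with it. It covers the 250 bases before the start at chr10:81500138-81500387 on the minus strand (GRCm38.p6, sequence from RefSeq), written in the direction of the gene. Capitals mark the 1 match to CACCC, here as GGGTG on the other strand, which begins 107 bases before the start.

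S1pr4: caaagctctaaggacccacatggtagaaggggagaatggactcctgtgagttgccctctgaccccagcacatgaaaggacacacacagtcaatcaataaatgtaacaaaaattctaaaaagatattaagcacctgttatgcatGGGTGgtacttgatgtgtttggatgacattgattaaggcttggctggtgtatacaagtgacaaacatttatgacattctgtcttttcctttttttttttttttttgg

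The motif CACCC was searched on both strands and is held by 52.0% of the 32851 start regions of that length. The FOXO core GTAAACA, searched in the same way and held by 3.17% of them, had no match in the S1pr4 region. Of the 6 members, 5 were matched in the sequence table and S1pr1 was not searched here. The Sgpl1 and Sgpp1 regions held neither motif. Sphk2 had 1 and 2 matches to CACCC at its 2 listed starts, and Sphk1 had between 0 and 4 at its 5 starts.

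S1pr1, the receptor through which mature thymocytes leave the thymus, was low in SP1 and SP2 and several times higher in SP3 and SP4. In replicates 1, 2 and 3 its intensity was 185, 178 and 96.4 in SP1, with a mean of 153 ± 49.2 (SD, n = 3). In SP2 it was 169, 137 and 268 (mean 191 ± 67.8). In SP3 it was 583, 487 and 744 (mean 604 ± 130). In SP4 it was 1120, 845 and 933 (mean 966 ± 140). SP1 and SP2 overlapped, whereas every SP3 array was above every SP1 and SP2 array, and every SP4 array was above every SP3 array. Replicate 3 held both the lowest value in SP1 and the highest in SP2 and in SP3.

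S1pr4 followed the same order with a smaller range. Its intensity was 133, 135 and 111 in SP1 (mean 126 ± 13.5, SD, n = 3). In SP2 it was 186, 149 and 161 (mean 165 ± 18.8). In SP3 it was 314, 286 and 281 (mean 294 ± 17.8). No 2 neighbouring subsets overlapped, and SP4 stood at 427, 556 and 402 (mean 462 ± 82.8).

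**Figure D1:**
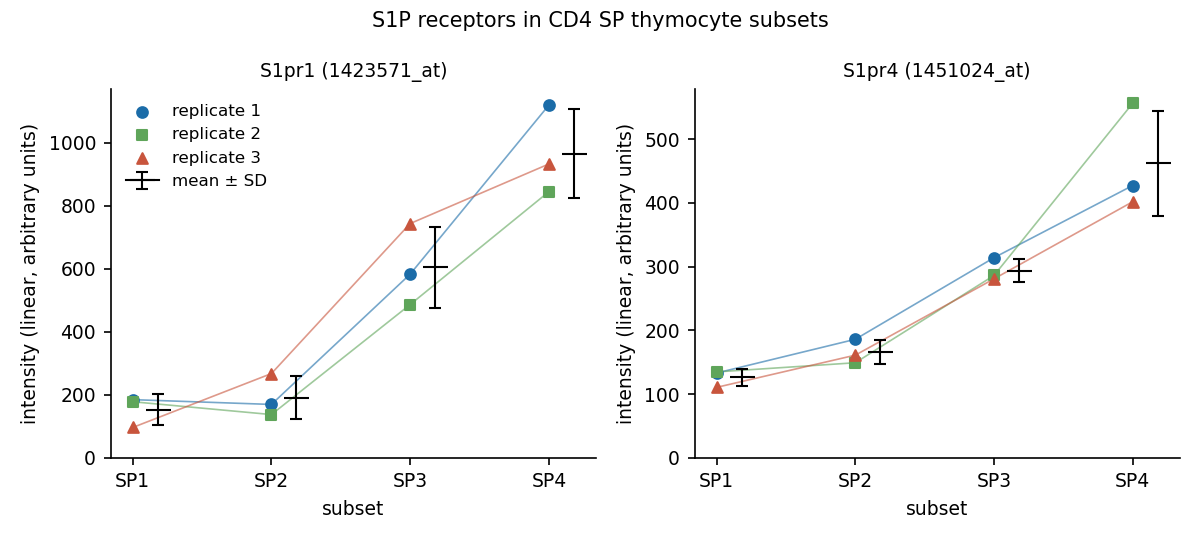
Intensity of S1pr1 (left) and S1pr4 (right) in the 4 subsets, on linear axes in arbitrary units. Points are the 12 arrays, thin lines join arrays of 1 replicate number, and the black mark beside each subset is the mean with its SD (n = 3). S1pr1 stayed at 268 or below in SP1 and SP2 and reached 487 or above in SP3 and SP4, and S1pr4 climbed from a mean of 126 to a mean of 462.

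Between the ends of the order, S1pr1 was higher in SP4 than in SP1 by 2.58 on the log2 scale (SE 0.28, 5.96-fold, limma adjusted p = 0.00138), and in 3 of 3 replicates. S1pr4 was higher by 1.74 (SE 0.17, 3.34-fold, limma adjusted p = 0.000558), also in 3 of 3. The 95% intervals of the log2 differences ran from 1.95 to 3.20 for S1pr1 and from 1.37 to 2.11 for S1pr4. These were the 2 member probe sets called higher, of 11, where 0.862% of all probe sets were called higher without the block and 3.39% with it, and neither fit called another member. By size of the log2 fold change, S1pr1 ranked 11 and S1pr4 ranked 78 of the 45037 probe sets. Of the 8 activated or memory markers, 2 were called higher in SP4 vs SP1 without the block and 5 with it. Their part in the receptors' difference was not tested.

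Against SP2, SP4 was higher by 2.28 for S1pr1 (limma adjusted p = 0.00363) and by 1.39 for S1pr4 (limma adjusted p = 0.00313). Again these were 2 of 11 members, beside a background of 0.477% called higher, or 1.84% with the block. Of the 8 activated or memory markers, 4 were called higher in SP4 vs SP2 by either fit, and their part in the receptors' difference was not tested. When SP2 and SP4 were fitted on their own, S1pr4 kept its size but not its call (limma adjusted p = 0.0808).

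The rise was split into its 3 steps. From SP1 to SP2, S1pr1 differed by 0.29 (SE 0.28) and S1pr4 by 0.35 (SE 0.17), and no member was called by either fit (1 of 11, a Sphk1 probe set, had an unadjusted limma p under 0.05 without the block), beside a background called higher of 0% without the block and 0.00888% with it. Within replicates the S1pr1 difference was -0.11, -0.34 and 1.34, so replicate 3 alone went up, whereas S1pr4 went up in 3 of 3 (0.44, 0.13 and 0.48). Without replicate 3 the S1pr1 difference was -0.23. Double positive markers had a median log2 difference of -1.59 in this step, with 0 of 9 called by either fit.

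From SP2 to SP3, where CD69 leaves the surface, S1pr1 differed by 1.61 (SE 0.28, 3.05-fold) and S1pr4 by 0.77 (SE 0.17, 1.71-fold). Without the block 0 of 11 members were called and 0% of all probe sets were called higher (limma adjusted p = 0.305 for S1pr1 and 0.646 for S1pr4). Unadjusted, limma gave 0.000122 for S1pr1 and 0.000686 for S1pr4. With the block both were called (limma adjusted p = 0.0303 and 0.0408), beside 0.0888% of all probe sets called higher. The 3 replicates gave S1pr1 differences of 1.69, 1.71 and 1.42 and S1pr4 differences of 0.71, 0.87 and 0.75. Double positive markers moved in the same step, with a median log2 difference of 2.28 over 9 genes and 2 of them (Cd8a and Cd8b1) called with the block. Their part in the receptors' step was not tested.

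From SP3 to SP4, the step at which Qa-2 appears, S1pr1 differed by 0.67 (SE 0.28, 95% interval 0.05 to 1.30) and S1pr4 by 0.61 (SE 0.17, 0.24 to 0.98). Without the block 0 of 11 members were called (limma adjusted p = 0.978 and 0.432 for the receptors, 0.0363 and 0.00364 unadjusted), beside 0.149% called higher over all. With the block S1pr4 was called (limma adjusted p = 0.0488) and S1pr1 was not (0.319), beside 0.897%. Both receptors were higher in SP4 in 3 of 3 replicates, by 0.92, 0.78 and 0.32 for S1pr1 and by 0.43, 0.92 and 0.49 for S1pr4. Activated or memory markers moved in this step too, with 2 of 8 called higher without the block and 4 with it. Double positive markers went the other way, with a median log2 difference of -1.45 over 9 genes and 1 called lower with the block. The part of either list in the S1pr4 call was not tested.

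Across both early steps, SP3 was above SP1 by 1.90 for S1pr1 and by 1.13 for S1pr4. Without the block both had a limma adjusted p = 0.0893 and 0 of 11 members were called, beside 0.0111% of all probe sets. Unadjusted, limma gave 2.66e-05 for S1pr1 and 2.75e-05 for S1pr4. With the block both were called (limma adjusted p = 0.00697 for S1pr1 and 0.00417 for S1pr4), beside 0.215%. Of all 45037 probe sets, S1pr1 had the highest log2 fold change in SP3 vs SP1, and S1pr4 ranked 37.

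Whether one step was larger than the next was tested directly. For S1pr1 the step from SP2 to SP3 exceeded the step from SP3 to SP4 by 0.94 (95% interval -0.14 to 2.01) and the step from SP1 to SP2 by 1.31 (0.24 to 2.39). Neither difference was called without the block, where 0% of all probe sets were called for either contrast. With the block the limma adjusted p-values were 0.601 and 0.422, beside 0.147% and 0.0600% called. The first difference was above 0 in 3 of 3 replicates (0.77, 0.94 and 1.10), and so was the second, at 1.81, 2.05 and 0.09. Unadjusted, limma gave 0.0829 for the first and 0.0210 for the second without the block, and 0.0510 and 0.00998 with it. For S1pr4 the corresponding differences were 0.16 (-0.48 to 0.80) and 0.42 (-0.22 to 1.06), and neither was called.

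The CD69-negative subsets SP3 and SP4 were then set against the CD69-positive subsets SP1 and SP2, with 6 arrays a side. S1pr1 was higher in the CD69-negative subsets by 2.09 (SE 0.20, 4.26-fold, limma adjusted p = 0.000575) and S1pr4 by 1.26 (SE 0.12, 2.39-fold, limma adjusted p = 0.000554). For each receptor the exact two-sided permutation test over the 924 splits gave p = 0.00216, the smallest value it allows. It shuffles arrays without regard to replicate number and gives this value to any probe set whose 2 sides do not overlap. They were 2 of 11 members called, beside a background of 0.449% without the block and 2.17% with it. Of the activated or memory markers, 3 of 8 were called higher in the CD69-negative subsets without the block and 4 with it, and their part in the receptors' difference was not tested. Within replicates the difference was 2.10, 1.93 and 2.25 for S1pr1 and at least 1.14 in each for S1pr4.

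The transcript of Cd69 itself, the marker used in the sort, did not separate these sides. From SP1 to SP4 its intensity averaged 818 ± 322, 786 ± 265, 613 ± 43.5 and 776 ± 188 (SD, n = 3), and the log2 difference between the sides was -0.16 (SE 0.23), with no call in either fit. The gate was set on surface protein, and the mRNA read by this probe set overlapped between all 4 subsets.

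The measured log2 change between these sides was larger for S1pr1 than for S1pr4. The log2 difference of S1pr1 minus S1pr4 within an array was 0.83 higher in the CD69-negative subsets, where it ran from 0.59 to 1.36, than in the CD69-positive subsets, where it ran from -0.17 to 0.68 (exact two-sided permutation p = 0.00433, 6 against 6 arrays). This pair was compared after its values were seen.

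Over the 4 subsets together, the limma F test gave an adjusted p of 0.00297 for S1pr1 and 0.00193 for S1pr4, again 2 of 11 members, beside 0.582% of all probe sets called without the block and 3.70% with it. An exact permutation of the 12 arrays over the subsets (15400 arrangements) gave p = 0.000649 for S1pr1 and p = 6.5e-05 for S1pr4, the latter being the smallest it can give. Permuted within replicate numbers (576 arrangements), the exact p was 0.00868 for S1pr1 and 0.00174 for S1pr4, again the smallest possible for the latter. A single pair of subsets has 3 arrays a side, where an exact two-sided test cannot go below 0.10, so pairs rest on the limma fit.

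S1pr1 is also strongly expressed by endothelial cells, so their markers were read on the same arrays. The 6 endothelial markers summed to 494, 510 and 244 in replicates 1, 2 and 3 of SP4. Within each replicate this was the highest of the 4 subsets, since the sums of the others lay between 321 and 368 in replicate 1, between 332 and 495 in replicate 2 and between 190 and 196 in replicate 3. The endothelial sum was thus highest in the same subset as S1pr1. Pecam1, which lymphocytes carry as well, made up most of this sum, and Tek and Emcn had means of 6.32 and 6.28, near the bottom of the array scale. Cdh5, the cadherin of endothelial junctions, was low throughout but stood at 17.0, 19.7 and 14.1 in SP1 and at 28.0, 39.2 and 68.9 in SP4 (limma adjusted p = 0.0738 without the block and 0.00599 with it). Of the 6 markers, 3 were above 0 in SP4 vs SP1, with a median log2 fold change of -0.0086 beside -0.0094 over all probe sets. In SP4 vs SP2, 2 of 6 were above 0, with a median of -0.010 beside -0.016. The part of these markers in the S1pr1 rise was not tested.

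None of the 9 enzyme probe sets was called in any comparison by either limma fit. In SP4 vs SP1 none had an unadjusted p under 0.05 without the block, and 2, both of Sgpp1, had one with it. Sphk1, the kinase best known for signals at the plasma membrane, was close to the bottom of the scale on both probe sets. Probe set 1420566_at ran from 6.08 to 7.96 and 1451596_a_at from 14.9 to 20.4 over the 12 arrays, with means at the percentiles 14.4 and 36.5 of all probe sets. SP4 vs SP1 gave -0.01 (95% interval -0.08 to 0.05) and -0.04 (-0.22 to 0.13), and with such low intensities the offset holds these values near 0. On 1420566_at the exact permutation test over subsets gave p = 0.0231 and the one within replicates p = 0.0764, while limma's F gave p = 0.0672, or 0.999 when adjusted. The means of that probe set were 7.47, 6.34, 6.39 and 7.24 from SP1 to SP4, all within 2 units of each other.

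Sphk2, the second kinase, found largely in the nucleus and on inner membranes, was measured at a moderate level. Its probe set 1417431_a_at read 52.3, 60.4 and 89.3 in SP1 and 63.5, 76.3 and 87.5 in SP4. The spread between replicates was thus wider than the difference between subsets, since replicate 3 was higher than the mean of the other two in each of the 4 subsets, by 0.27 to 0.54 on the log2 scale. SP4 vs SP1 was 0.16 (95% interval -0.33 to 0.64). The other probe set, 1426230_at, ran from 38.1 to 56.8 with 0.08 (-0.22 to 0.37) for the same difference. In the fit with the block, the lowest adjusted p of Sphk2 over the 7 contrasts was 0.333.

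Sgpl1, the lyase that ends the S1P signal by cleaving the lipid, read 129, 156 and 194 in SP1 on probe set 1415892_at. It read 121, 206 and 164 in SP2 and 91.3, 161 and 161 in SP3. In SP4 it read 167, 157 and 162, so all 4 subsets overlapped. SP4 vs SP1 was 0.03 (SE 0.24, 95% interval -0.49 to 0.56), an interval that leaves out a change of the size seen for either receptor. The second probe set, 1415893_at, lay between 50.4 and 125 in replicates 1 and 2 but at 6.56, 11.3, 8.76 and 9.58 in replicate 3 of SP1 to SP4. On this probe set SP3 was below SP2 in 3 of 3 replicates, with a log2 difference of -0.57 that neither fit called (limma adjusted p = 0.237 with the block).

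Sgpp1, the endoplasmic reticulum phosphatase that returns S1P to sphingosine, had the largest differences among the enzymes in SP4 vs SP1, without a call. On probe set 1420821_at it read 75.9, 86.6 and 112 in SP1. In SP4 it read 141, 92.1 and 162. The log2 difference was 0.44 (95% interval -0.13 to 1.01, limma adjusted p = 0.830, or 0.124 with the block) and above 0 in 3 of 3 replicates. Probe set 1420822_s_at gave 0.42 (-0.36 to 1.21, limma adjusted p = 0.969, or 0.163 with the block), also above 0 in 3 of 3. It ran from 268 to 692, with replicate 3 highest in each subset. The third probe set, 1450015_x_at, lay between 162 and 335 in replicates 1 and 2 and between 20.8 and 27.9 in replicate 3. Its SP4 vs SP1 difference of 0.14 had an SE of 1.04 without the block and of 0.19 with it.

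**Figure D2:**
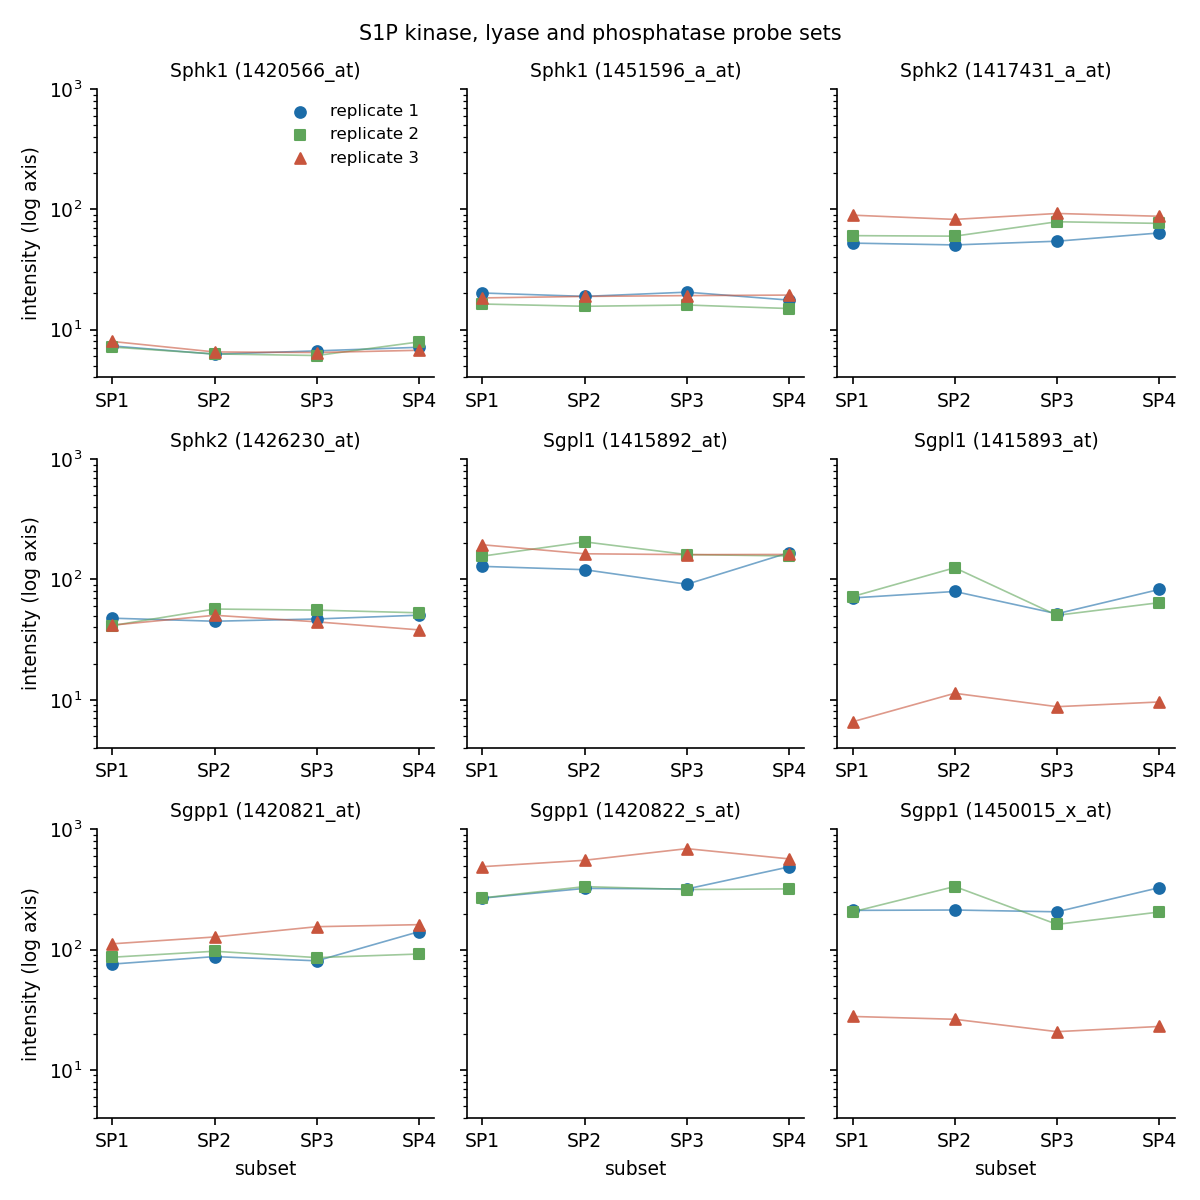
Intensity of the 9 enzyme probe sets in the 4 subsets, on a logarithmic axis shared by all panels. Points are single arrays and thin lines join arrays of 1 replicate number. The subsets overlap on each probe set except at the lowest intensities of Sphk1 1420566_at, and on Sgpl1 1415893_at and Sgpp1 1450015_x_at replicate 3 lies far below the other replicates in every subset.

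**Figure D3:**
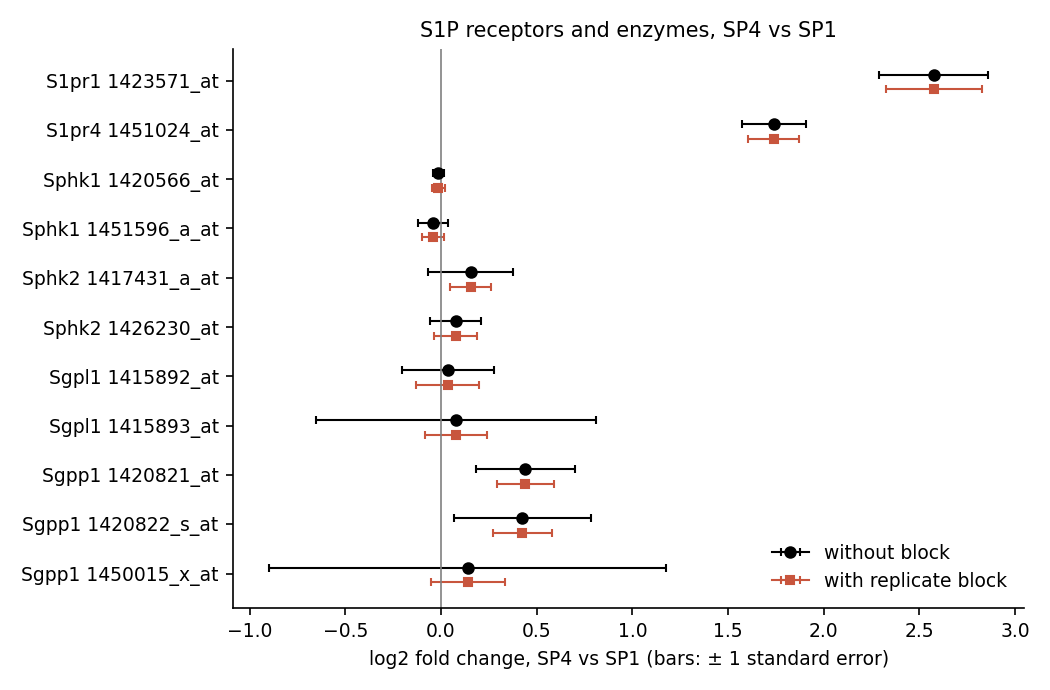
Log2 fold change of SP4 vs SP1 for the 11 member probe sets, with bars of 1 SE on each side from the fit without the block (black) and with it (red). S1pr1 (2.58) and S1pr4 (1.74) stand apart from the 9 enzyme probe sets, which lie between -0.04 and 0.44.

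The other S1P receptors were not called in any comparison by either fit. S1pr2 ran from 28.9 to 41.6 on probe set 1428176_at and from 120 to 162 on 1447880_x_at. S1pr3, a receptor of vessels and heart, ran from 8.08 to 24.8 over 3 probe sets. S1pr5, which guides the egress of NK cells, stayed between 5.06 and 7.77. None of their 6 probe sets reached an unadjusted limma p under 0.05 in a comparison of subsets, and the lowest adjusted p was 0.947 without the block and 0.378 with it.

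The wider pathway was read from lists by function, each gene by its probe set of highest mean. In SP4 vs SP1, 1.08% of all probe sets were called in either direction without the block and 5.16% with it, and the median log2 fold change of all was -0.01. Of the 12 genes for S1P transport and other phosphatases, 1 was called higher by either fit, and the list's median was 0.03. That gene was Abca1, an exporter of cholesterol and phospholipids. Its intensity was 167, 194 and 175 in SP1 and 446, 550 and 431 in SP4 (log2 fold change 1.33, limma adjusted p = 0.0210). In SP2 it was 264, 342 and 361 and in SP3 it was 170, 356 and 271, so these 2 subsets overlapped. Spns2 and Mfsd2b, which release S1P from endothelium and red cells, were among the 11 without a call.

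Of the 14 measured genes on the list for ceramide release and breakdown, 1 was called higher without the block and 2 with it (median -0.03). Smpdl3a encodes a phosphodiesterase that is listed here for its likeness to sphingomyelinases, and whether its product releases ceramide was not tested. Smpdl3a read 185, 204 and 125 in SP1 and 794, 1055 and 765 in SP4. It read 342, 373 and 341 in SP3, apart from both, and its log2 fold changes were 2.26 in SP4 vs SP1 (SE 0.20, limma adjusted p = 0.000254), 1.26 in SP4 vs SP3 (limma adjusted p = 0.0383) and 1.56 between CD69-negative and CD69-positive subsets (limma adjusted p = 0.000444). Asah1, the lysosomal acid ceramidase, was called with the block alone (0.42, limma adjusted p = 0.0493).

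Of 19 measured genes of ceramide and sphingolipid synthesis none was called without the block, with 2 at an unadjusted p under 0.05, and 3 were called higher with it (median 0.13). These were Ugcg, the glucosylceramide synthase (0.86, limma adjusted p = 0.0414), Cers4, a ceramide synthase (0.78, limma adjusted p = 0.00214), and Sgms1, a sphingomyelin synthase (0.67, limma adjusted p = 0.0122). Of 18 measured genes of S1P1 signalling and desensitization none was called without the block, with 4 at an unadjusted p under 0.05, and 2 with it (median 0.07). They were Arrb1, which encodes a beta-arrestin (0.82, limma adjusted p = 0.00142), and Grk6, a receptor kinase (0.71, limma adjusted p = 0.0261).

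Of 8 regulators of S1P1 in T cells, 1 was called higher without the block and 3 with it (median 0.22). Klf2, the transcription factor that turns on S1pr1 in T cells, read 283, 325 and 416 in SP1 and 1043, 1345 and 1673 in SP4. It was higher by 1.93 (SE 0.29, limma adjusted p = 0.00854), and its SP2 and SP3 means of 638 and 1029 lay between. Between CD69-negative and CD69-positive subsets Klf2 was higher by 1.33 (limma adjusted p = 0.0146). Foxo1, a transcription factor that acts on Klf2, was called with the block alone (1.03, limma adjusted p = 0.000645), with 530, 544 and 830 in SP1 and 1271, 1042 and 1607 in SP4. Stat3, a signal transducer downstream of cytokine receptors and of S1P1, was likewise called with the block alone (0.75, limma adjusted p = 0.00473).

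**Figure D4:**
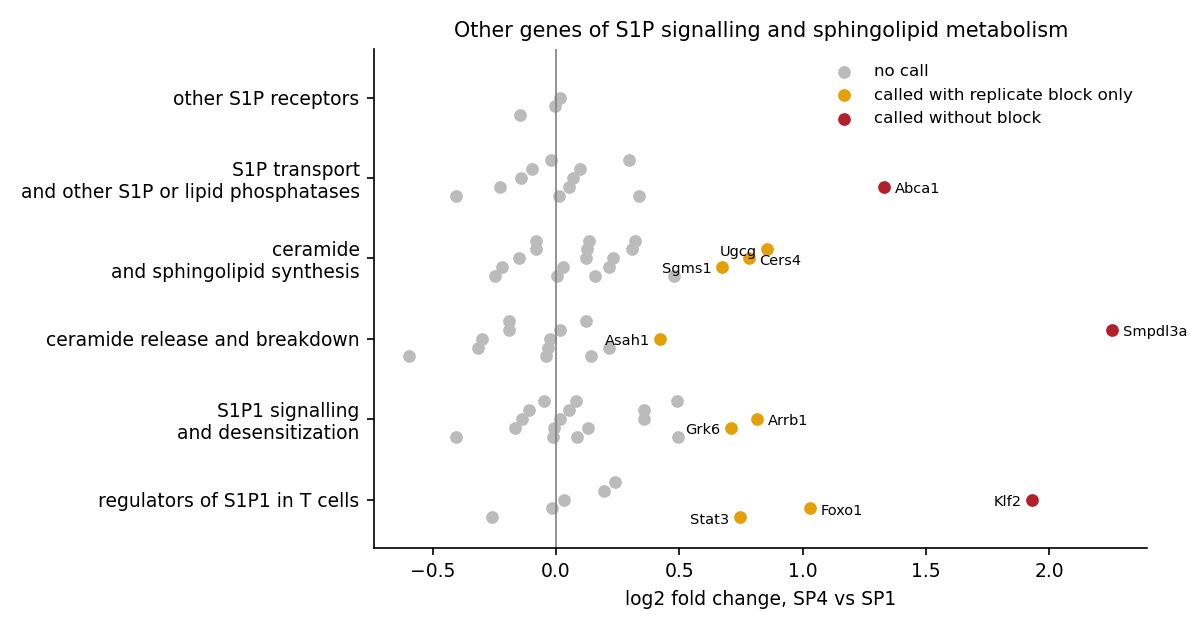
Log2 fold change of SP4 vs SP1 for the measured genes of the 6 pathway lists, 1 point a gene, spread vertically within a list only to part the points. Red points were called without the block (Abca1, Smpdl3a and Klf2), orange points with the block alone, and grey points by neither fit.

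Genes whose log2 intensity ran most like the receptors over the 12 arrays were ranked by Pearson correlation among 7249 genes of mean intensity of at least 100, as a description. The arrays share the subset order and the replicate numbers, so many genes that rise with maturity correlate with each other. Closest to S1pr1 were Adgre5 (r = 0.98), which encodes the adhesion receptor CD97, Klhdc2 (0.97), Klf3 (0.97), a transcriptional repressor of the same family as Klf2, St8sia6 (0.96) and Rflnb (0.96). S1pr4 was 10th in that order (0.94). Closest to S1pr4 were A630023P12Rik (0.98), Klhdc2 (0.97), Smpdl3a (0.97), Rflnb (0.97) and Tmem71 (0.96), with S1pr1 at rank 19. Klf2 came at rank 73 for S1pr1 (0.86) and at rank 103 for S1pr4 (0.85). Cd69 had r = -0.09 with S1pr1 and -0.08 with S1pr4.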

How the data were processed

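The authors sorted the 4 subsets, hybridized RNA to arrays of the Affymetrix Mouse 430 2.0 design and deposited linear intensity values, 1 column per array. The study's methods name RMA for the normalization and the submitters' notes name MAS5; the sources used here give no version. The study's SAM test was not repeated. Here log2(intensity + 16) was fitted with limma 3.58.1 (R 4.3.3, eBayes with a mean-variance trend) on 12 arrays, with p-values adjusted over 45037 probe sets per comparison. The script was tested on simulated data. The number of arrays limits the precision.

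Replicate numbers were taken to pair the arrays, since columns of a supplementary gene list that share a repeat name hold the values of same-numbered arrays. Deviations from subset means correlated between 0.279 and 0.883 for arrays of 1 number. Between replicates 1 and 2 of different subsets they correlated between 0.178 and 0.729, and between replicate 3 and either of these between -0.812 and -0.388. The correlations thus set replicate 3 apart more than they part replicates 1 and 2. A fit with the number as a block was therefore set beside the other.

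Members and lists were chosen with earlier results of these data known. Named were all members, called list members, the other receptors, Cd69 and the 5 genes most like each receptor. List members called with the block alone, and Cdh5, Cd8a, Cd8b1, Cxcr3 and Il18r1, were named after their values were seen. Alternatives were offsets of 1 and 64, quantile normalization, a mean intensity over 50, no trend, only the subsets compared, probe set means, and arrays left out. Probe sets were named by the array annotation; 34945 name 1 gene. Marker lists of NK, B and myeloid cells are given in the closing section.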

Additional observations from a re-analysis of the deposited data

How the results depend on the processing

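S1pr1 and S1pr4 were called in SP4 vs SP1, SP4 vs SP2 and CD69-negative vs CD69-positive subsets without each of the 12 arrays in turn, with limma adjusted p-values between 0.000836 and 0.0257. With the replicate block, members called higher numbered 2 in SP3 vs SP1, 2 in SP3 vs SP2 and 1 in SP4 vs SP3, through S1pr1 (1.90 and 1.61) and S1pr4 (1.13, 0.77 and 0.61), and list members called in SP4 vs SP1 numbered 3 for ceramide synthesis, 2 for ceramide release, 2 for S1P1 signalling and 3 for regulators. The block changed no other call of a member. With probe sets of mean intensity over 50 alone, or without the trend, S1pr4 was called in SP3 vs SP1 (1.13, limma adjusted p = 0.0416 and 0.0453), 1 member each. With the 2 subsets alone, S1pr4 lost its call in SP4 vs SP2 (1.39), leaving 1 member. With arrays left out, S1pr1 in SP2 vs SP1 ranged from -0.23 to 0.49, and in SP3 vs SP2 from 1.42 to 1.86 with between 0 and 1 members called. The call came without replicate 3 (1.70, limma adjusted p = 0.00967). Uncalled SP4 vs SP1 differences that changed sign with an array left out ranged from -0.10 to 0.17 for Sgpl1 1415892_at, from -0.57 to 0.68 for 1415893_at, from -0.65 to 1.08 for Sgpp1 1450015_x_at, and from -0.034 to 0.017 and from -0.086 to 0.0098 for the Sphk1 probe sets. The causes were not tested. Offsets, quantile normalization and probe set means changed no direction or call of a member. Sphk1, S1pr3 and S1pr5 lay so low on the array scale that a small change could not have been seen.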

Other observations

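Replicate 3 stood apart on 2 member probe sets while other probe sets of the same genes did not follow. On the log2 scale, Sgpp1 1450015_x_at differed in replicate 3 from the mean of the other two by -2.82 to -2.36 in the 4 subsets, whereas Sgpp1 1420822_s_at differed by 0.51 to 1.08 and 1420821_at by 0.40 to 0.79. Sgpl1 1415893_at differed by -2.09 to -1.44, whereas 1415892_at differed by -0.0040 to 0.41. Over the whole array, 68 probe sets (0.151%) were more than 4-fold lower in replicate 3 in all 4 subsets and 28 (0.0622%) more than 4-fold higher. Sgpp1 1450015_x_at met this rule, whereas Sgpl1 1415893_at did not meet it in all 4 subsets. Of the 60 genes with such a low probe set, 54 had another probe set of mean 100 or more that stayed within 2-fold in all 4 subsets. The cause was not tested.

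Marker sums of cells that the sort gate was meant to leave out varied between arrays of 1 subset. The 5 measured NK cell markers summed to between 183 and 1573 in SP1 and to between 230 and 536 in SP2. In SP3 they summed to between 851 and 1166 and in SP4 to between 777 and 1001. The 5 B cell markers summed to between 842 and 3557 in SP1 and 685 and 1484 in SP2. In SP3 they summed to between 1456 and 2594 and in SP4 to between 1350 and 3478. The 7 myeloid and dendritic markers summed to between 424 and 1420 over all arrays. None of these lists had a member called in SP4 vs SP1 without the block, and with it 1 NK, 0 B cell and 1 myeloid gene were called higher. Over all probe sets 0.862% were called higher in that comparison without the block and 3.39% with it. In SP4 vs SP2, 1 NK gene was called higher in each fit, and 1 B cell and 1 myeloid gene with the block alone. The share of all probe sets called higher in SP4 vs SP2 was 0.477% without the block and 1.84% with it. Above 0 in that comparison were 4 of 5 NK, 4 of 5 B cell and 7 of 7 myeloid genes (medians 0.19, 0.40 and 0.49, beside -0.02 over all). Their part in the receptors' difference was not tested.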
